A study of Mus musculus with 16 samples.

Results

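The genes described here are 32 transcription factor genes that pattern the embryo, none of them in a Hox cluster, and that are commonly held by Polycomb in mouse embryonic stem cells. A peak was counted for a gene when it shared 1 bp or more with the gene body plus 5 kb on each side, and 31 of the 32 genes had a peak in at least 1 of 4 peak lists. The genes stand among 21938 protein-coding genes on chromosomes 1 to 19, X and Y. The 4 lists held 35 peaks at these genes of 23946 in KO talazoparib, 56 of 35445 in KO DMSO, 21 of 15526 in WT talazoparib and 54 of 28539 in WT DMSO. Merged where they overlapped, these peaks formed 113 regions at the 32 genes, among 60797 regions in the whole series.

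The study mapped DNA single-strand breaks by SSB-seq, in which E. coli DNA polymerase I places digoxigenin-labelled nucleotides at nicks and an antibody to digoxigenin then enriches the labelled fragments (IP). The cells, C57BL/6JRj embryonic stem cells kept in 2i medium with LIF, were Tdg knockout (KO) or wild type (WT) and had received 5 nM talazoparib for 24 h or DMSO. TDG is the glycosylase that removes thymine, and oxidised forms of methylcytosine, from DNA, and talazoparib inhibits PARP1 and PARP2, which act at strand breaks. Each condition had 3 IP libraries and 1 input library. The protocol describes removal of a Tdg minigene by 4-OHT, and which of the samples received 4-OHT is not stated in the labels. Whether the KO cells come from 1 clone, and how long the DMSO cells were treated, are not stated either. The cells were kept in a medium meant to hold them pluripotent, and whether any had differentiated was not checked here.

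Each list is 1 set of peaks for the 3 IP libraries of a condition together. The values therefore come without an SD, and differences between conditions without a p-value. Intervals are 95% counting intervals and cover counting error only. The IP libraries of a list summed to 66.4 M tags in KO talazoparib, 69.2 M in KO DMSO, 83.8 M in WT talazoparib and 87.0 M in WT DMSO. The KO libraries were sequenced on 2 flow cells and the WT libraries on another 2, with 0 shared, so genotype and flow cell cannot be told apart. Every listed peak had a fold over input of at least 4.00, and a gene without a peak is a gene that is not listed, not a gene measured at 0. The measurement is on genomic DNA, so whether these genes were silent, and whether the cells carried stem cell markers, was not checked here.

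Polycomb repressive complexes keep developmental genes off in stem cells. PRC2, with the methyltransferase EZH2 and its partners EED and SUZ12, methylates histone H3 at lysine 27, and PRC1, with RING1 or RNF2, ubiquitinates histone H2A. Their targets usually have CpG islands at the gene start, where the promoter stays unmethylated and TET enzymes and TDG are known to act.

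The DNA under 5 of the 16 regions held by 3 or 4 lists is printed so that the CpG content of the recurrent sites can be seen. The Lhx1 and Six2 regions were the only ones held by all 4 lists, and the other 3 were added after their values were seen, as held by 3 lists with high tag counts. Each run is 300 bases at the centre of the stretch common to the lists, read 5′ to 3′ on the + strand of mm10 (RefSeq GRCm38.p6), with CpG in capitals. The Lhx1 run, with 46 CpG, lies at chr11:84513419-84513718 and covers the start of the neighbouring gene Aatf.
Lhx1: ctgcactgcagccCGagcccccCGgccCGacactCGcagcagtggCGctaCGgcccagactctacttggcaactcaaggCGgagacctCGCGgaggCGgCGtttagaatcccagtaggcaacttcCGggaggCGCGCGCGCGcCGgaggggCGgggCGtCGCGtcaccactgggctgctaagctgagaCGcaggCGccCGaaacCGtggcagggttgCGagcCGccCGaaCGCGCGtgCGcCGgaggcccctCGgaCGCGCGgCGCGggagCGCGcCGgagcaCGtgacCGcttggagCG
The Six2 run, with 30 CpG, lies at chr17:85688286-85688585, just upstream of the Six2 start.
Six2: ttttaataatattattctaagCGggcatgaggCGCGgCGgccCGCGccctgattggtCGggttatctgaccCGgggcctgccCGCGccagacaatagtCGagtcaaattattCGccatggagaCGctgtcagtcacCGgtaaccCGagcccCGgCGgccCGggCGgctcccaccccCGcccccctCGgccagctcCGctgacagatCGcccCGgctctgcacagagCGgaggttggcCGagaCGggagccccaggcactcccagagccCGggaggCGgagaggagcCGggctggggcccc
The Olig2 run, with 22 CpG, lies across the Olig2 start at chr16:91225378-91225677.
Olig2: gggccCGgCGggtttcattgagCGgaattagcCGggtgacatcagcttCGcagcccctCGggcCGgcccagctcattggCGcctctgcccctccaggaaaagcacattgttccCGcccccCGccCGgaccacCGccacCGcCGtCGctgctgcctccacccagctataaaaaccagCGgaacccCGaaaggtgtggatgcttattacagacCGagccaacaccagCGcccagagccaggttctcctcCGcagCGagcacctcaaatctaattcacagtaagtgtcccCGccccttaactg
The Nkx6-1 run, also with 22 CpG, lies at chr5:101665242-101665541, upstream of its start.
Nkx6-1: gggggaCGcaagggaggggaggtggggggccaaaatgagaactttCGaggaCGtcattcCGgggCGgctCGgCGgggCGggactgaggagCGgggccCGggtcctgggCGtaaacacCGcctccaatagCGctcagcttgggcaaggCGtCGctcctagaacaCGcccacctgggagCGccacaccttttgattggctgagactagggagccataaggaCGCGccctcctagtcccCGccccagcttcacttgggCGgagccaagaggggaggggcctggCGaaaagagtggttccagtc
The Lhx2 run, with 20 CpG, lies inside the gene at chr2:38351151-38351450.
Lhx2: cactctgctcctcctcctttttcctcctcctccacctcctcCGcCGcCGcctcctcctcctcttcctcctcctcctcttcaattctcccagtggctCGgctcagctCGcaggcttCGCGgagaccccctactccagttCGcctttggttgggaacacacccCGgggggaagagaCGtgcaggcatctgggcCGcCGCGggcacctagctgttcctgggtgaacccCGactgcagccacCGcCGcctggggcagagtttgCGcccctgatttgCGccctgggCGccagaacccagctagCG

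In KO talazoparib 23 of the 32 genes had a peak (71.9%, exact binomial interval 53.3 to 86.3%), where 58.9% of all protein-coding genes had one. KO DMSO listed 26 (81.3%, 63.6 to 92.8%) against 66.8% of all genes, WT talazoparib 17 (53.1%, 34.7 to 70.9%) against 48.8%, and WT DMSO 25 (78.1%, 60.0 to 90.7%) against 60.9%. Among protein-coding genes within the length range of the 32, the shares were 60.4% in KO talazoparib, 68.5% in KO DMSO, 50% in WT talazoparib and 62.6% in WT DMSO. In every list both of these shares lay inside the interval of the 32 genes. The share of protein-coding genes in the highest quintile of CpG density at the start was larger, at 85.3% in KO talazoparib, 94.8% in KO DMSO, 76.1% in WT talazoparib and 88.1% in WT DMSO, and 12 of the 32 genes belong to that quintile. Both talazoparib lists were shorter than the DMSO list of their genotype over the whole genome. When every list was reduced to its 15526 best-scoring peaks, the count of genes was 22 in KO talazoparib, 22 in KO DMSO, 17 in WT talazoparib and 22 in WT DMSO, beside 51.2%, 51.03%, 48.8% and 49.9% of all genes in the same 4 lists. With a fold over input of at least 6 it was 3 in KO talazoparib, 19 in KO DMSO, 7 in WT talazoparib and 8 in WT DMSO, beside 25.1%, 50.1%, 31.3% and 27.7% of all genes.

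**Figure D1:**
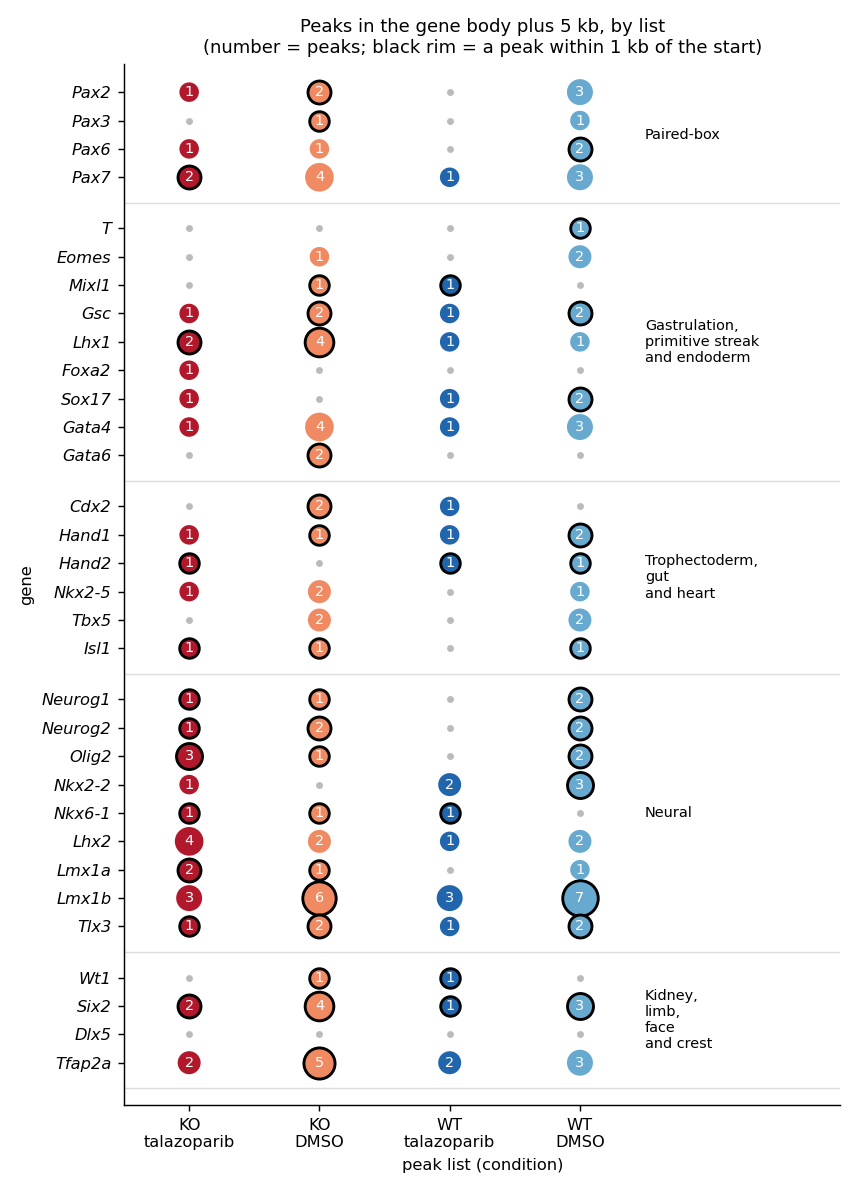
Number of peaks at each of the 32 genes (rows, grouped by role) in the 4 lists (columns), with a black rim where a peak lies within 1 kb of the gene start and a grey dot where no peak is listed. Dlx5 has no peak, 10 genes have a peak in all 4 lists, and Lmx1b has the most in 1 list, with 7 in WT DMSO.

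By number of lists, 10 genes had a peak in all 4 (Pax7, Gata4, Lhx1, Lhx2, Hand1, Tlx3, Lmx1b, Gsc, Six2 and Tfap2a) and 12 in 3. Pax2, Pax6, Sox17, Nkx2-2, Nkx6-1, Nkx2-5, Neurog1, Neurog2, Olig2, Hand2, Isl1 and Lmx1a make up the 12. Another 6 genes were in 2 lists (Pax3, Eomes, Mixl1, Tbx5, Cdx2 and Wt1), 3 in 1 list (Gata6, Foxa2 and T) and 1 in none (Dlx5, a homeobox factor of the face and limb skeleton). The spread of all protein-coding genes over the number of lists was not computed, so these counts, and the 31 genes with any peak, have no background. Lhx1 was in both WT lists only through peaks at the start of its neighbour Aatf. Gata4 was in WT talazoparib only through a peak at the start of Neil2. A gene found in all 4 lists often had its peaks at different sites: of the 10, only Lhx1 and Six2 had a single region that all 4 lists held. The plot of peak counts per gene shows that the grey dots are most frequent in the WT talazoparib column.

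Near the gene start the counts were lower. The start is the 5′ end of the gene record, and other transcript starts of a gene were not counted. A peak within 1 kb of the start was listed for 11 genes in KO talazoparib (34.4%, 18.6 to 53.2%), 19 in KO DMSO (59.4%, 40.6 to 76.3%), 5 in WT talazoparib (15.6%, 5.28 to 32.8%) and 14 in WT DMSO (43.8%, 26.4 to 62.3%). Over all protein-coding genes the shares were 41.4% in KO talazoparib, 51.3% in KO DMSO, 32.6% in WT talazoparib and 42.4% in WT DMSO, each inside the interval of the 32 genes. Because starts rich in CpG are listed more often in these data, the genes were also set beside genes of like CpG density within 500 bp of the start. In the highest quintile, start peaks were listed for 8 of 12 genes in KO talazoparib, where 71% of all genes of that quintile had one, and for 11 of 12 in KO DMSO, where 87.1% did. WT talazoparib listed 3 of these 12 against 61.4%, and WT DMSO 7 of 12 against 73.6%. In the next quintile, 3 of 10 genes had a start peak in KO talazoparib, 5 in KO DMSO, 2 in WT talazoparib and 4 in WT DMSO, where the shares of all genes were 69.96%, 83.9%, 57.7% and 70.9% in the same 4 lists. None of the 8 genes of the middle quintile had one in either talazoparib list, and 3 had one in each DMSO list, where the shares of all genes were 51.3% in KO talazoparib, 62.6% in KO DMSO, 35.6% in WT talazoparib and 50.9% in WT DMSO. KO DMSO in the highest quintile was the only case with at least 8 of these genes in which their share was above that of all genes.

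**Figure D2:**
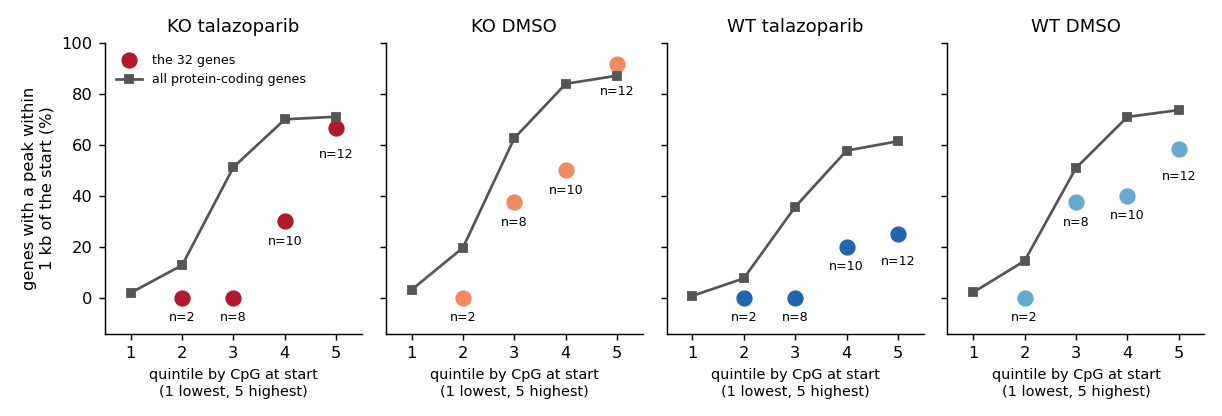
Share of genes with a peak within 1 kb of the start (vertical axis, percent) by quintile of CpG density at the start (horizontal axis, 1 lowest to 5 highest), for the 32 genes (coloured points, n beside each) and all protein-coding genes (grey line), 1 panel per list. The points lie below the line in every panel, except in KO DMSO in the highest quintile, where 11 of 12 genes had a start peak.

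The 25 genes with a start peak in at least 1 list had a median of 6.69 CpG per 100 bp at the start, and 11 of them were in the highest quintile. The 7 genes with none (Gata4, Foxa2, Eomes, Nkx2-5, Tbx5, Lhx2 and Dlx5) had a median of 4.10 CpG per 100 bp, and 1 was in the highest quintile. Some of them had peaks at another of their transcript starts, which these counts and CpG densities leave out. Such peak centres lay 24 to 135 bp from a transcript start at Gata4 and 460 to 490 bp at Lhx2. At Nkx2-5 the WT DMSO peak lay 21 bp from one. By distance from peak centre to start, 31.4% of peaks at these genes lay within 1 kb in KO talazoparib (interval 16.9 to 49.3%), against 41.5% of all peaks at protein-coding genes. The figures were 33.9% (21.8 to 47.8%) against 35.3% in KO DMSO, 23.8% (8.22 to 47.2%) against 49.3% in WT talazoparib and 22.2% (12.0 to 35.6%) against 36.4% in WT DMSO. The shares of all peaks lay above the interval in WT talazoparib and in WT DMSO, and inside it in both KO lists. Peaks at these genes were measured to their own gene's start, so peaks at a neighbour's start counted as farther away. In WT talazoparib such peaks lay 61 bp from the Aatf start and 119 bp from that of Neil2. In WT DMSO 1 lay 99 bp from the Aatf start, and the KO lists had such peaks too. The shares of all peaks may count such peaks as near a start, and the intervals treat peaks of 1 gene as independent. The WT differences therefore cannot be read as particular to these genes.

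The sequence under the peaks was rich in CpG. The median peak at these genes held 5.86 CpG per 100 bp in KO talazoparib, 5.87 in KO DMSO, 5.99 in WT talazoparib and 4.34 in WT DMSO, while the medians of all peaks were 2.40, 2.10, 3.18 and 2.00 in the same 4 lists. Peaks at protein-coding genes in general had 3.25 in KO talazoparib, 2.48 in KO DMSO, 4.79 in WT talazoparib and 2.51 in WT DMSO. The level of a peak is given as the normalised tag count, the IP tags in a listed peak per 10000000 IP tags. Its median at these genes was 8.28 in KO talazoparib, 8.17 in KO DMSO, 4.24 in WT talazoparib and 4.46 in WT DMSO, where all peaks had 7.45, 6.87, 5.07 and 4.83. Peaks at protein-coding genes in general had medians of 8.66 in KO talazoparib, 7.59 in KO DMSO, 5.85 in WT talazoparib and 5.34 in WT DMSO, above those of the 32 genes in all lists but KO DMSO. Many peaks were near the fold threshold: 21 of 35 peaks had a fold over input under 5 in KO talazoparib, 21 of 56 in KO DMSO, 6 of 21 in WT talazoparib and 27 of 54 in WT DMSO. The shares of all peaks under that fold were 41.8% in KO talazoparib, 21.7% in KO DMSO, 19.7% in WT talazoparib and 45.6% in WT DMSO. The counting interval of the fold reached below 4 for all 35 peaks in KO talazoparib, 53 of 56 in KO DMSO, all 21 in WT talazoparib and all 54 in WT DMSO. Nearly all of these peaks were thus within counting error of the threshold. The same count was not made over all peaks, so it cannot be read as particular to these genes.

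Few of the 113 regions were in every list. All 4 lists held 2 of them (1.77%, exact binomial interval 0.215 to 6.25%), where they held 9.47% of the 60797 regions of the series. The interval treats regions as independent, which regions of 1 gene are not. A single list held 79 regions (69.9%) against 61.6% of all regions, 2 lists held 18 (15.9%) against 17.7%, and 3 lists held 14 (12.4%) against 11.2%. By treatment, 24 regions (21.2%) were in talazoparib lists alone against 19.7% of all regions, and 63 (55.8%) in DMSO lists alone against 48.8%. By genotype, 46 (40.7%) were in KO lists alone against 42%, and 38 (33.6%) in WT lists alone against 26.1%. By the distance of a region's centre, 26 regions at 23 genes were within 1 kb of the start, of which 7 were in 3 or 4 lists, and 87 were farther away, of which 9 were. All regions of the series were not split by distance, so whether this split is particular to these genes was not tested.

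**Figure D3:**
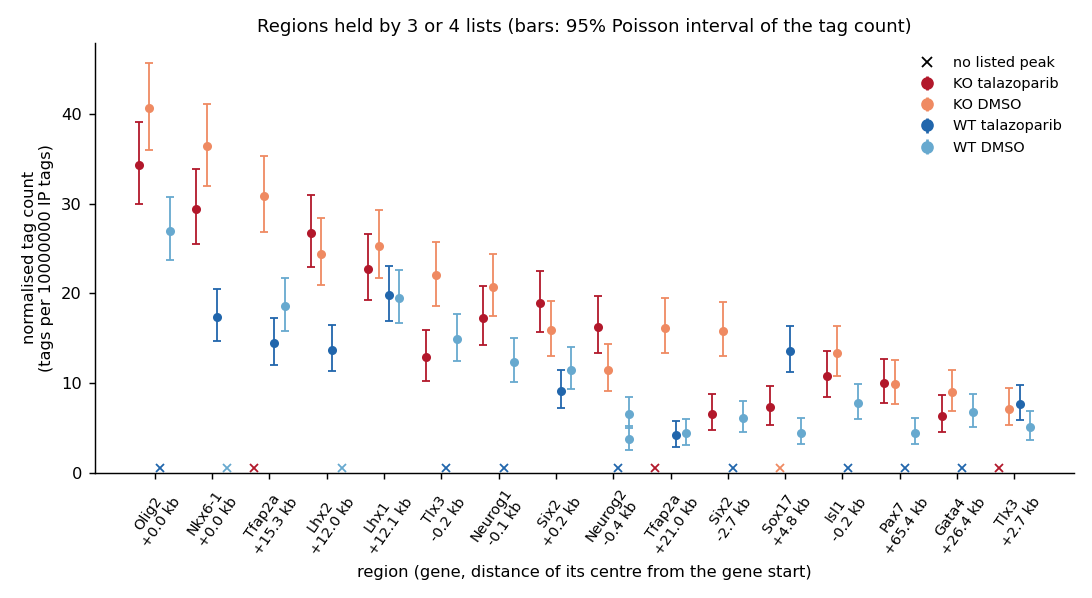
Normalised tag count (vertical axis, tags per 10000000 IP tags) of the 16 regions held by 3 or 4 lists, named on the horizontal axis by gene and by distance of the region's centre from the gene start. Points are the lists' peaks with 95% Poisson intervals, and a cross marks a list with no peak there. The highest points are at the Olig2 and Nkx6-1 starts in KO DMSO, and WT talazoparib has the most crosses.

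Six2, a homeobox factor that maintains kidney progenitors, was the only 1 of the 32 genes with its own start in all 4 lists. The region lies at chr17:85687208-85689033, with a normalised tag count of 18.9 in KO talazoparib (15.7 to 22.5), 15.9 in KO DMSO (13.1 to 19.2), 9.13 in WT talazoparib (7.20 to 11.4) and 11.5 in WT DMSO (9.35 to 14.0). Both KO counts were above both WT counts, but the peaks differed in length, with 1380 bp in KO talazoparib, 885 bp in KO DMSO, 662 bp in WT talazoparib and 751 bp in WT DMSO. Per bp the order changed: tag density was 3.63 times the mean of the genome in KO talazoparib, 4.76 in KO DMSO, 3.65 in WT talazoparib and 4.05 in WT DMSO. The ratio of counts in KO DMSO over WT DMSO was 1.38 (1.05 to 1.83), and the intervals of talazoparib over DMSO included 1 in both genotypes. Fold over input was 4.28 in KO talazoparib with 12.5 input tags, 6.08 in KO DMSO with 6.5, 4.97 in WT talazoparib with 4.5 and 7.96 in WT DMSO with 5.5. A further site about 2.7 kb upstream had a count of 6.55 in KO talazoparib, 15.8 in KO DMSO and 6.09 in WT DMSO, and was not listed in WT talazoparib. KO DMSO also had peaks of 7.81 in the intron, 2.70 kb from the start, and 4.12 downstream, 8.46 kb from the start, and WT DMSO had 1 of 3.33 downstream, 7.64 kb from the start.

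Lhx1, a LIM homeobox factor of the early organiser, kidney and head, had the other region of all 4 lists, at chr11:84512762-84514170. Its count was 22.7 in KO talazoparib (19.3 to 26.7), 25.3 in KO DMSO (21.7 to 29.3), 19.8 in WT talazoparib (16.9 to 23.1) and 19.5 in WT DMSO (16.7 to 22.7). The ratio of counts in KO DMSO over WT DMSO was 1.30 (1.04 to 1.61), and per bp it was 0.936, so its direction turned with the measure. Fold over input was 5.37 in KO talazoparib, 9.67 in KO DMSO, 5.11 in WT talazoparib and 6.77 in WT DMSO, with 12, 6.5, 9.5 and 11 input tags. The region is about 12 kb from the Lhx1 start, on the 3′ side of the gene, and its nearest protein-coding start is that of Aatf, a gene transcribed from the same strand whose product acts in ribosome assembly and apoptosis. Its peak centres were 44 bp upstream of the Aatf start in KO talazoparib, 57 bp downstream in KO DMSO, 61 bp upstream in WT talazoparib and 99 bp upstream in WT DMSO. In all, 3 of the 113 regions were nearest to another gene's start, this one and 2 at Neil2 beside Gata4, and of the remaining 110 regions only the Six2 start was in all 4 lists. At the start of Lhx1 itself KO talazoparib had a peak of 7.30 and KO DMSO had peaks of 7.95 and 4.55, while neither WT list had one. KO DMSO also had a peak of 4.48 farther upstream.

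Among the 9 neural genes the start was listed for 6 in KO talazoparib, 7 in KO DMSO, 1 in WT talazoparib and 6 in WT DMSO, and 7 of these 9 starts are in the highest quintile of CpG density. The shares of all genes of that quintile were 71% in KO talazoparib, 87.1% in KO DMSO, 61.4% in WT talazoparib and 73.6% in WT DMSO. Counting the whole gene plus 5 kb, 9 were listed in KO talazoparib with 17 peaks, 8 in KO DMSO with 16, 5 in WT talazoparib with 8 and 8 in WT DMSO with 21. With that window the shares of all genes were 58.9%, 66.8%, 48.8% and 60.9% in the same lists. In the highest quintile they were 85.3%, 94.8%, 76.1% and 88.1%. The neural genes named in the next sentences, apart from Lmx1b, were picked after their values were seen. Olig2, a bHLH factor of motor neurons and oligodendrocytes, had the highest count of all 32 genes. At its start the count was 34.3 in KO talazoparib (30.0 to 39.1), 40.6 in KO DMSO (36.0 to 45.7) and 27.0 in WT DMSO (23.7 to 30.7), and WT talazoparib had no peak there. The input was also dense at this site, at 2.23 times the mean of the genome in KO talazoparib, 1.41 times in KO DMSO and 1.61 times in WT DMSO, and fold over input was 4.63 in KO talazoparib, 6.73 in KO DMSO and 4.90 in WT DMSO. What the tag count in WT talazoparib was at this site is not in a peak list.

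The proneural bHLH factors Neurog1 and Neurog2 had the same pattern of lists as Olig2. The Neurog1 start had 17.3 in KO talazoparib (14.3 to 20.8), 20.7 in KO DMSO (17.4 to 24.4) and 12.4 in WT DMSO (10.2 to 15.0). The Neurog2 start had 16.3 in KO talazoparib (13.4 to 19.7), 11.5 in KO DMSO (9.11 to 14.3), and 2 peaks of 3.74 and 6.55 in WT DMSO. KO DMSO had a further Neurog2 peak of 13.4 (10.8 to 16.4), centred 1.04 kb from the start, which formed a region of its own. Tlx3, a homeobox factor of excitatory sensory neurons, had 12.9 at its start in KO talazoparib, 22.0 in KO DMSO and 14.9 in WT DMSO. Another Tlx3 site at the 3′ end of the gene was listed in KO DMSO with 7.16, in WT talazoparib with 7.64 and in WT DMSO with 5.11. The KO DMSO and WT DMSO peaks there did not overlap each other and were joined by the WT talazoparib peak. Nkx6-1, a homeobox factor of motor neuron progenitors and beta cells, was the only neural gene with a start peak in WT talazoparib, with 17.4 (14.7 to 20.5) and a fold of 4.06, and it had 29.4 in KO talazoparib (25.5 to 33.9) and 36.4 in KO DMSO (32.01 to 41.2). WT DMSO had no peak at Nkx6-1. Lhx2, a LIM homeobox factor of forebrain and eye, had no peak at the start of its gene record. A site 12.0 kb inside the gene had 26.7 in KO talazoparib (22.9 to 31.0), 24.4 in KO DMSO (20.9 to 28.4) and 13.7 in WT talazoparib (11.3 to 16.5). Its peak centres lay within 490 bp of another Lhx2 transcript start.

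Lmx1b, a LIM homeobox factor of dorsal limb, kidney and midbrain neurons, had 3 peaks in KO talazoparib, 6 in KO DMSO, 3 in WT talazoparib and 7 in WT DMSO over 79.6 kb. No region of it was in more than 2 lists. An intronic site 24.1 kb from the start had 25.4 in KO talazoparib (21.7 to 29.5; fold 4.80; 15 input tags) and 19.2 in KO DMSO (16.1 to 22.8; fold 10.62; 4.5 input tags), and neither WT list held it. The other Lmx1b peaks in KO talazoparib were 10.8 at 59.7 kb (fold 5.12, 6 input tags) and 8.51 at 8.54 kb from the start (fold 4.02, 6 input tags). In KO DMSO they were 13.1 upstream of the start (fold 4.33), 9.25 at 59.5 kb (fold 5.75), 8.39 at 0.717 kb (fold 4.63), 5.57 at 3.22 kb (fold 4.61) and 3.4 at 45.5 kb (fold 16.88 on 0.5 input tags). The WT talazoparib peaks had counts of 3.88 upstream of the start, 2.74 at 57.2 kb and 2.68 at 80.5 kb, on 1.5, 0.5 and 0.5 input tags. WT DMSO had its highest Lmx1b count, 7.99, at 45.3 kb (fold 6.77, 4.5 input tags) and 6.09 at 0.302 kb (fold 4.64, 5 input tags), and its other 5 ranged between 2.93 and 3.91. All 3 WT talazoparib peaks and 4 of the 7 in WT DMSO were 500 bp long, the shortest length found at the 32 genes. Every WT peak of this gene was below the strongest peak of either KO list. Of the remaining neural genes, Lmx1a, a factor of midbrain dopamine neurons, had 2, 1, 0 and 1 peaks in KO talazoparib, KO DMSO, WT talazoparib and WT DMSO, and Nkx2-2, a factor of ventral spinal cord and pancreas, had 1, 0, 2 and 3.

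**Figure D4:**
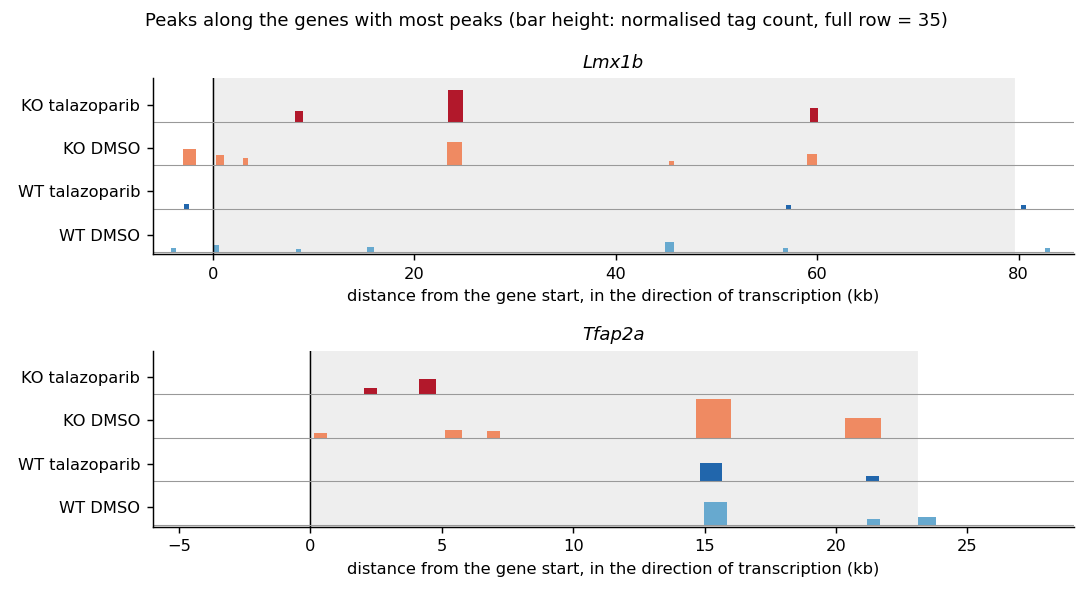
Peaks along Lmx1b (upper panel) and Tfap2a (lower panel), with distance from the gene start in kb on the horizontal axis, the gene body in grey and 1 row per list. Bar height is the normalised tag count, with a full row standing for 35, and bars are drawn at the peak's width or a minimum that keeps them visible. The Lmx1b site near 24 kb is in the KO rows alone, and the Tfap2a site near 15 kb is in every row but KO talazoparib.

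Tfap2a, the AP-2 alpha factor of neural crest and face, had 2 peaks in KO talazoparib, 5 in KO DMSO, 2 in WT talazoparib and 3 in WT DMSO. The site 15.3 kb from its start had 30.9 in KO DMSO (26.9 to 35.3; fold 6.99; 11 input tags), 14.5 in WT talazoparib (12.0 to 17.3; fold 4.74; 7.5 input tags) and 18.6 in WT DMSO (15.9 to 21.7; fold 4.56; 15.5 input tags). A site near the 3′ end, 21.0 kb from the start, had 16.2 in KO DMSO (fold 4.47, 9 input tags), 4.18 in WT talazoparib (fold 5.12, 2 input tags) and 4.43 in WT DMSO (fold 6.75, 2.5 input tags). KO talazoparib held neither site and had instead 12.3 at 4.46 kb (9.75 to 15.2; fold 4.1; 8.5 input tags) and 4.97 at 2.3 kb (fold 4.02, 3.5 input tags). Within 7 kb of the start, neither WT list held a Tfap2a peak. KO DMSO had further peaks of 6.43 at 5.45 kb (fold 7.99), 5.13 at 6.98 kb (fold 4.25) and 3.4 at 0.388 kb (fold 8.44). WT DMSO had 5.80 just past the gene end (fold 4.02). The 15.3 kb site overlaps the noncoding gene Gm47061. Wt1, a zinc finger factor of kidney and gonad, was picked after its values were seen: its start region had no peak in KO talazoparib, 5.28 in KO DMSO, 9.90 in WT talazoparib and no peak in WT DMSO. Of the 4 kidney, limb, face and crest genes (Wt1, Six2, Dlx5 and Tfap2a), 2 were listed in KO talazoparib and 3 in KO DMSO. WT talazoparib listed 3 and WT DMSO 2. The shares of all genes were 58.9%, 66.8%, 48.8% and 60.9% in the same 4 lists.

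In the group of gastrulation, primitive streak and endoderm genes, 5 of 9 had a peak in KO talazoparib, 6 in KO DMSO, 5 in WT talazoparib and 6 in WT DMSO. These are 55.6%, 66.7%, 55.6% and 66.7%, beside 58.9%, 66.8%, 48.8% and 60.9% of all genes. Several of these genes were found under 1 treatment or in 1 genotype alone. Gata6, the endoderm GATA factor on chromosome 18, was in KO DMSO alone, with 4.99 at its start (3.47 to 6.95; fold 4.13; 3 input tags) and 3.47 at 1.18 kb (2.22 to 5.16; fold 8.62; 1 input tag). Foxa2, a forkhead factor of endoderm and floor plate, was in KO talazoparib alone, with 4.74 upstream of its start (3.23 to 6.71; fold 5.37; 2.5 input tags). T (brachyury), the T-box factor of the primitive streak, was in WT DMSO alone, with 3.33 at its promoter (2.23 to 4.79; fold 4.23; 3 input tags). Eomes, a T-box factor of trophoblast and early mesendoderm, was in the DMSO lists alone, with 5.64 in KO DMSO (4.01 to 7.71; fold 5.60; 2.5 input tags) and 7.87 in WT DMSO (6.12 to 9.97; fold 5.46; 5.5 input tags) at 1 site downstream of the gene. A further Eomes peak of 5.69 (fold 5.42, 4 input tags) was in WT DMSO. All of these peaks had at most 5.5 input tags, and the lists they are missing from gave no value to set beside them.

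Gata4, the GATA factor of endoderm and heart, had 1 peak in KO talazoparib, 4 in KO DMSO, 1 in WT talazoparib and 3 in WT DMSO. Its intronic site 26.4 kb from the start had 6.40 in KO talazoparib, 8.97 in KO DMSO and 6.78 in WT DMSO. The peak centres of that site lay within 135 bp of another Gata4 transcript start. The single WT talazoparib peak of Gata4, with a count of 2.51, lies 119 bp from the start of Neil2, whose product is a DNA glycosylase of base excision repair. Sox17, an endoderm HMG factor, had its highest count under WT talazoparib: its exonic site had 7.30 in KO talazoparib (5.39 to 9.67), 13.6 in WT talazoparib (11.2 to 16.3) and 4.48 in WT DMSO (3.19 to 6.13), with no peak in KO DMSO. The WT talazoparib peak at Sox17 spans 1273 bp, against 500 bp in KO talazoparib and 500 bp in WT DMSO. The KO talazoparib and WT DMSO peaks did not overlap each other, and only the longer WT talazoparib peak joined them. Mixl1, a homeobox factor of the primitive streak, had 9.04 at its start in KO DMSO and 8.05 in WT talazoparib, and no peak in KO talazoparib or WT DMSO. Gsc, the organiser homeobox gene goosecoid, had 1, 2, 1 and 2 peaks in KO talazoparib, KO DMSO, WT talazoparib and WT DMSO. Gata4, Sox17 and Mixl1 were picked after their values were seen.

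The 4 paired-box genes, long genes with a median length of 88.9 kb, had fewer peaks in each talazoparib list than in the DMSO list of the same genotype, as the whole lists did. Of the 4, KO talazoparib listed 3 with 4 peaks, KO DMSO 4 with 8, WT talazoparib 1 with 1 and WT DMSO 4 with 9, where the shares of all genes were 58.9% in KO talazoparib, 66.8% in KO DMSO, 48.8% in WT talazoparib and 60.9% in WT DMSO. Pax3, a factor of neural crest and muscle progenitors, was in the DMSO lists alone, with 3.54 in KO DMSO near its start (2.28 to 5.25; fold 8.80; 1 input tag) and 3.91 in WT DMSO in an intron 7.80 kb from the start (2.71 to 5.46; fold 4.96; 3 input tags). The sites differ between the lists. Pax7, a factor of muscle stem cells, had 10.0 in KO talazoparib, 9.90 in KO DMSO and 4.48 in WT DMSO at an intronic site about 65 kb from its start. Pax2, a factor of kidney and hindbrain, had 1, 2, 0 and 3 peaks in KO talazoparib, KO DMSO, WT talazoparib and WT DMSO, and Pax6, a factor of eye and forebrain, had 1, 1, 0 and 2.

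For the trophectoderm, gut and heart genes, 4 of 6 were listed in KO talazoparib, 5 in KO DMSO, 3 in WT talazoparib and 5 in WT DMSO. The shares of all genes were 58.9%, 66.8%, 48.8% and 60.9% in the same 4 lists. Tbx5, a T-box factor of heart and forelimb, was in the DMSO lists alone: an intragenic site had 8.68 in KO DMSO (6.62 to 11.2; fold 4.79; 4.5 input tags) and 3.28 in WT DMSO (2.19 to 4.72; fold 4.16; 3 input tags). It had a further peak of 3.18 downstream in KO DMSO (fold 7.90, 1 input tag) and of 3.05 in an intron in WT DMSO (fold 4.64, 2.5 input tags). Isl1, a LIM homeobox factor of motor neurons and the second heart field, had 10.8 at its start in KO talazoparib (8.41 to 13.6), 13.4 in KO DMSO (10.8 to 16.4) and 7.82 in WT DMSO (6.07 to 9.91), and was not listed in WT talazoparib. Cdx2, which specifies trophectoderm and hindgut, had 2 peaks in KO DMSO, of 14.2 and 9.04, and 1 of 3.52 in WT talazoparib at another place. Isl1 and Cdx2 were picked after their values were seen. Hand1, a bHLH factor of trophoblast and heart, had 1, 1, 1 and 2 peaks in KO talazoparib, KO DMSO, WT talazoparib and WT DMSO, its relative Hand2 had 1, 0, 1 and 1, and Nkx2-5, a homeobox factor of heart progenitors, had 1, 2, 0 and 1.

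Of the 14 regions held by 3 lists, WT talazoparib lacked 8, KO talazoparib 3, WT DMSO 2 and KO DMSO 1. The 8 are at Pax7, Gata4, Neurog1, Neurog2, Olig2, Isl1, Tlx3 and Six2, and 5 of them lie within 1 kb of a start. They are 7.08% of the 113 regions, and 6.29% of all regions of the series were in the same 3 lists, so the pattern at these genes was near that of the genome. WT talazoparib was also the shortest list.

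Where 2 lists held the same region, their normalised tag counts were set side by side. A region joins overlapping peaks of any list, so the peaks of 2 lists in it need not overlap each other. At the 3′ Tlx3 site the KO DMSO and WT DMSO peaks did not, and their ratio of 1.40 was still counted. KO talazoparib over KO DMSO could be formed for 16 regions, with a median ratio of 0.871 against 0.965 over 14004 regions. Per bp of listed peak the median was above 1, at 1.17 against 1.13, so its side of 1 and its place beside all regions both turned with the measure. The counting interval of the ratio lay above 1 for 2 of the 16, where 18.2% of all regions did, and below 1 for 4, where 26.1% did. Lower ones were Lmx1a (0.398), the upstream Six2 site (0.415), the Tlx3 start (0.586) and Nkx6-1 (0.808), and higher ones Neurog2 (1.42) and the Lmx1b intron (1.32). The Neurog2 ratio leaves out the neighbouring KO DMSO peak of 13.4, which was a separate region, so it depends on how peaks were merged. The listed peaks differed in length, and per bp all 4 of the lower regions had a tag density ratio above 1, with 1.18 at Lmx1a, 1.06 at the upstream Six2 site, 1.05 at the Tlx3 start and 1.27 at Nkx6-1. The direction of these 4 differences therefore turned with the measure. WT talazoparib over WT DMSO could be formed for 7 regions, with a median of 0.944 against 0.824 over 8261 regions, and the interval lay above 1 for 2 (13.1% of all) and below 1 for 1 (39.7% of all). Above 1 were the exonic Sox17 site (3.04) and the 3′ Tlx3 site (1.5), whose density ratios were 1.19 and 0.990, and below 1 was the 15.3 kb Tfap2a site (0.780). The median per bp was 0.901 against 0.946 over all regions.

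Between genotypes the counts were higher in KO lists at these genes as they were over the genome. KO talazoparib over WT talazoparib had a median of 1.82 over 6 regions against 1.88 over 7901 regions, with the interval above 1 for 4 (73.5% of all) and below 1 for 1 (3.04% of all), Sox17 at 0.537. Per bp, Sox17 had a ratio of 1.37, while Lhx2 (0.947) and the Six2 start (0.993), both above 1 by count, were below 1. The median per bp was 1.35 at these genes and 1.56 over all regions. KO DMSO over WT DMSO had a median of 1.49 over 20 regions against 1.54 over 14704, with the interval above 1 for 13 (62.5% of all) and below 1 for 1 (3.37% of all), an intronic Lmx1b site at 0.426. Per bp the median was 1.20 against 1.27, and 12 of the 13 regions were above 1, all but Lhx1. The largest of the 20 was the 3′ Tfap2a site (3.66, density ratio 1.34), followed by the Gsc start (2.79, density ratio 1.36). The medians at these genes were close to those over all regions, and genotype cannot be told apart from the flow cells.

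Other genes of the pathway were taken from lists chosen with earlier results of these data known. The 12 genes of PRC2 subunits and partners had a start peak in 12 cases in KO talazoparib, 11 in KO DMSO, 9 in WT talazoparib and 9 in WT DMSO, and 7 of the 12 are in the highest quintile of CpG density. Of 21 genes of PRC1, 14 had one in KO talazoparib, 17 in KO DMSO, 16 in WT talazoparib and 14 in WT DMSO, and 10 of the 21 are in that quintile. Beside these counts stand shares of 41.4% of all genes in KO talazoparib, 51.3% in KO DMSO, 32.6% in WT talazoparib and 42.4% in WT DMSO, and in the highest quintile 71%, 87.1%, 61.4% and 73.6% in the same 4 lists. As background, both complexes are present in stem cells. The median CpG density at the start was 8.39 per 100 bp for the PRC2 genes and 7.49 for the PRC1 genes, against 6.44 for the 32 genes. A list of 79 other developmental transcription factors, with a median of 5.99, had start peaks at 30 in KO talazoparib, 42 in KO DMSO, 18 in WT talazoparib and 32 in WT DMSO. Their shares, 38.0% in KO talazoparib, 53.2% in KO DMSO, 22.8% in WT talazoparib and 40.5% in WT DMSO, lay inside the intervals of the 32 genes. Counted over the gene plus 5 kb, 56 of the 79 had a peak in KO talazoparib, 68 in KO DMSO, 32 in WT talazoparib and 55 in WT DMSO. These are 70.9%, 86.1%, 40.5% and 69.6%, beside 58.9%, 66.8%, 48.8% and 60.9% of all genes in the same 4 lists.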

How the data were processed

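SSB-seq was measured in 16 libraries, 3 IP and 1 input per condition. Per the submitters' processing notes, the software was HOMER 4.11, Bowtie2 2.3.4.2, R 3.6 and Picard 2.9.2, and the build mm10, with no roles or settings given. Per the file headers, each deposited table holds peaks in the layout of HOMER findPeaks, with 1 value per peak for the pooled IP libraries. The deposited normalised tag count is a signal, in tags per 10000000 IP tags, and the input tags are a signal in steps of 0.5. Another deposited column (unit other) rescales IP tags to the size of the input. Dividing it by the input tags gives the authors' fold, a ratio, and the deposited p-value of each peak was at most 8.32e-05. The authors' score ranked peaks within a list only. Clonal fold, a deposited score as well, was not used.

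IP totals were recovered from values under 6, of which 99.98 to 100.0% per list lay on steps of 0.5 tags within 0.0051. Tag intervals are exact Poisson, shares exact binomial (Clopper-Pearson), both at 95% and covering counting error only. Where HOMER's starts count from is not stated, and coordinates are printed as deposited. Genes are those of GENCODE M21 on mm10, and sequences are from RefSeq GRCm38.p6. The sequence of 1 further region is not reported here. Density is tags per bp over the mean of the IP or input across 2648 Mb. Python 3.11.15, pandas 2.3.3, scipy 1.17.1 and pysam 0.24.0 were used, and the code was tested on simulated data.

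The genes, lists and settings were chosen with earlier results of these data known. Full values were given for genes with a region in all 4 lists, with 5 or more peaks in a list, or listed under 1 treatment or genotype alone. Conditions were set side by side without a test, since no value per library was given. Alternatives changed the gene window, the thresholds on fold, input tags and density, the list length and the merging of regions.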

Additional observations from a re-analysis of the deposited data

How the results depend on the processing

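No paired analysis was possible because the tables hold 1 pooled value per peak and none per library, so neither the replicate block nor leaving out a replicate was run. Of 156 values under an alternative, 113 stayed within the limits set and 43 did not. With a fold over input of at least 6, the genes with a peak were 3 in KO talazoparib, 7 in WT talazoparib and 8 in WT DMSO. The peaks then numbered 3 in KO talazoparib, 26 in KO DMSO, 9 in WT talazoparib and 11 in WT DMSO. That threshold kept 31.0%, 57.1%, 64.5% and 28.9% of all peaks in the same lists. Of 43 regions then left, 37 were in 1 list, 31 in DMSO lists alone and 0 in all 4, and 0% of WT talazoparib peaks were near a start. The share in 1 list was 86.0%, beside 80.3% of all regions at that threshold. The share of all regions in DMSO lists alone was not computed under the alternatives. With at least 3 input tags, WT talazoparib had 9 genes and 9 peaks, KO DMSO had 37 peaks, and 75 regions remained, 51 in 1 list and 39 in DMSO lists alone. The 51 are 68.0%, beside 51.2% of all regions at that setting. Within 1 kb of the start only, genes numbered 11 in KO talazoparib, 5 in WT talazoparib and 14 in WT DMSO, and peaks 11, 22, 5 and 15 in KO talazoparib, KO DMSO, WT talazoparib and WT DMSO. There were 32 regions then, 20 in 1 list, 18 in DMSO lists alone and 1 in all 4. A density of at least 2 times the genome mean left 13 peaks in WT talazoparib and 30 in WT DMSO. Lists of equal length gave 33 peaks in KO DMSO and 34 in WT DMSO, with 33 regions in DMSO lists alone and 1 in all 4. Asking each list to cover 50% of a region also left 1 in all 4. The share of regions in all 4 lists was below that of all regions in each of the 6 alternatives for regions, but not all of them can tell. The start-only setting narrowed the regions at these genes alone, and its 3.12% was set against the unchanged 9.47% of all regions. At a fold of at least 6 all 4 lists held only 0.999% of all regions, so 0 of 43 shows little. Measured to any transcript start, 51.4% of KO talazoparib peaks were within 1 kb. The median tag count at these genes over that of all peaks was 1.80 at a fold of at least 6, 0.807 at 3 or more input tags and 0.814 at equal length in KO talazoparib, and 1.56, 0.892 and 0.777 in KO DMSO, so its direction depended on the setting. Input tags, with medians of 2 to 5 per peak, limit what the fold can show.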
